A study of Mus musculus with 8 samples.

Results

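The families of miR-15 with miR-16 and of miR-103 with miR-107 were examined in the amygdala of mice killed 30 min after auditory fear conditioning, against the amygdala of mice taken from the home cage. The members were all capture probes with a mouse name built on mmu-miR-15a, mmu-miR-15b, mmu-miR-16, mmu-miR-195, mmu-miR-497, mmu-miR-322, mmu-miR-503, mmu-miR-103 or mmu-miR-107 (written below without mmu-), whatever the arm or locus. This rule gave 20 of the 1034 probes with a mouse miRNA name and of the 2607 capture probes in all. Of these, 15 belonged to the miR-15/16 family and 5 to the family of miR-103 and miR-107, and 9 were for the main arm and 11 for the star arm, the arm of the hairpin that usually accumulates less.

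The fear conditioned group held 4 adult male C57/Bl6J mice that received 5 pairings of a 6 kHz tone with a 0.6 mA shock. The home cage group held 4 adult males of the same background that got neither tone nor shock, so learning, tone, shock and handling cannot be told apart. The labels name no transgene, allele or drug in either group. Punches of 1 mm from both sides of each brain were hybridised to locked nucleic acid probes, 1 mouse per array, with the sample's RNA labelled with the dye Hy3 and a pool of RNA from the animals labelled with Hy5.

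MicroRNAs are short RNAs that lower the stability or translation of messenger RNAs, and they find a target mainly through the seed, the bases at positions 2 to 8. Both families share a run of bases at their start and for that reason overlap in their targets. miR-15a and miR-16 are best known as restraints on cyclins and on the survival factor Bcl2. miR-103 and miR-107 lie within pantothenate kinase genes, which encode the enzymes that start coenzyme A synthesis, and are known for effects on insulin sensitivity and on Dicer, the enzyme that cuts miRNA hairpins.

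All 20 probe names were matched to a mature mouse sequence of RefSeq (GRCm38.p6). The 9 main arms are shown because they define the families, each 5′ to 3′ with the seed in capitals.
miR-15a-5p: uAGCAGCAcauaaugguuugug
miR-15b-5p: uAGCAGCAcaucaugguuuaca
miR-16-5p: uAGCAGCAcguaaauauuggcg
miR-195a-5p: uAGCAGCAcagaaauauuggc
miR-497a-5p: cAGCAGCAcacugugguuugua
miR-322-5p: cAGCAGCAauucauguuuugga
miR-503-5p: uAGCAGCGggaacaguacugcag
miR-103-3p: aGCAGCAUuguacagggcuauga
miR-107-3p: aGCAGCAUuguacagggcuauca
The seed AGCAGCA was shared by 6 members, miR-15a, miR-15b, miR-16, miR-195, miR-497 and miR-322, and by 4 other mature mouse miRNAs in the table, miR-195b, miR-6342, miR-6353 and miR-6419. miR-503 carries AGCAGCG. In miR-103 and miR-107 the run AGCAGCA occupies bases 1 to 7, so their seed is GCAGCAU.

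Counted from the 5′ end, miR-103-3p and miR-107-3p were identical at 22 of 23 positions and differed by G22C. miR-16-5p and miR-195a-5p were identical at 19 of the 21 positions compared and differed by G10A and U11G. How far each of these probes binds the RNA of its near relative was not tested. Among the star arms, the 3 of the miR-103 and miR-107 hairpins shared a seed of their own, and they are shown with miR-503-3p because miR-107* and miR-503* are among the members with the smallest p below.
miR-103-1-5p: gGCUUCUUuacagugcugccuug
miR-103-2-5p: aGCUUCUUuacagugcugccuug
miR-107-5p: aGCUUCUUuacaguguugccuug
miR-503-3p: gAGUAUUGuuuccacugccugg
The seeds of the other 7 star arms and of miR-503-3p were each found in 1 member alone.

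The members come from 7 places in the genome. miR-15a (chr14:61632075-61632096, minus strand) and one copy of miR-16 (chr14:61631936-61631957, minus strand) lie 117 bases apart within the span of the long noncoding RNA gene Dleu2. miR-15b (chr3:69009775-69009796, plus strand) and the second copy of miR-16 (chr3:69009918-69009939, plus strand) lie 121 bases apart within the span of Smc4, which encodes a condensin subunit. miR-497 (chr11:70234730-70234751, plus strand) and miR-195 (chr11:70235062-70235082, plus strand) are 310 bases apart. miR-322 (chrX:53054306-53054327, minus strand) and miR-503 (chrX:53054027-53054049, minus strand) are 256 bases apart within the span of the noncoding gene C430049B03Rik. miR-103 has a copy in Pank3 (chr11:35782447-35782469, plus strand) and another in Pank2 (chr2:131288103-131288125, plus strand), and miR-107 lies in Pank1 (chr19:34820700-34820722, minus strand). A single probe measured both copies of miR-16, and another both copies of miR-103, so their levels do not separate the copies.

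Values are the log2 Hy3 signal after background correction and quantile normalization, and beside it the authors' deposited log ratio of the sample to the pool. A probe was called above background on an array where its signal passed the 95th percentile of the negative control spots. Between 575 and 657 mouse probes did so on the fear conditioned arrays and between 565 and 656 on the home cage arrays. With 4 arrays per group, array number bounds the precision. Home cage array 1 stood apart, with a median capture spot at 7.23 before normalization against 6.17 to 6.52 on the other arrays. It had 508 spots flagged for background above signal, against 0 to 10 on the others. Each array was on a slide of its own and the slide numbers of the groups formed separate runs, so group and slide order cannot be told apart. Neuronal miR-124 was at 14.26 ± 0.16 on the fear conditioned arrays and 14.46 ± 0.059 on the home cage arrays (SD, n = 4 each), and the lists of other cell types are given near the end.

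Of the 20 members, 10 passed the negative controls on each of the 8 arrays. These were miR-15a, miR-15b, miR-16, miR-195, miR-503, miR-503*, miR-103, miR-103-2*, miR-107 and miR-107*. miR-497, miR-322 and miR-16-1* were above them on 7 arrays, miR-103-1* on 6, miR-195* on 4, miR-15a* on 3, and miR-15b* and miR-497* on 2. miR-16-2* and miR-322* were above them on 0 arrays, so no difference is read for either by itself. Both stay in the counts and medians over all 20 members. The star arm therefore passed throughout for miR-503, miR-107 and the Pank2 copy of miR-103, while miR-15b passed on every array and its star arm on 2. A pass does not by itself show expression. Of 3 muscle miRNAs not expected in this tissue, miR-1 and miR-206 passed on all 8 arrays and miR-133a on 3. miR-1 was at 6.75 after conditioning and 6.76 in the home cage, near the levels of miR-103-2* and miR-107* given below.

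No member differed between the groups at an adjusted p under 0.05 in limma, in either measure. In the Hy3 signal 0 of 20 members passed, where 0.193% of all mouse probes did, and in the deposited ratio 0 of 20, where 0% did. In Hy3, 4 members had an unadjusted p under 0.05, beside 14.1% of all probes. After conditioning 2 of them were higher, miR-503* and miR-497, beside 5.03% of all probes, and 2 were lower, miR-103 and miR-107*, beside 9.09%. The deposited ratio had 1 such member, beside 7.65% of all probes. It was the dim miR-497*, which differed by -0.27, beside 1.36% of all probes on the lower side. In Hy3 miR-497* differed the other way, by 0.12 (SE 0.098), with 11 of its 32 spots left out. The groups did not overlap in Hy3 for 2 members, beside 9.47% of the probes with 8 values. Both were lower, miR-103 and miR-107*, beside 5.38%. In the ratio 0 members had groups that did not overlap, beside 5.43%. Over the list 8 members were higher and 12 lower in quantile-normalized Hy3, with a median difference of -0.017 beside -0.0043 over all probes. In the ratio 13 were higher and 7 lower, with a median of 0.030 beside 0.031 over all probes.

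miR-103 had the lowest unadjusted p of the members in Hy3. Its signal was 9.94, 9.93, 10.03 and 9.98 on the fear conditioned arrays, and 10.40, 10.20, 10.31 and 10.13 on the home cage arrays. Every fear conditioned array thus lay below every home cage array. The mean was 9.97 ± 0.046 after conditioning and 10.26 ± 0.12 in the home cage (SD, n = 4 each), a difference of -0.29 (SE 0.059, 95% interval -0.43 to -0.15, limma adjusted p = 0.115, two-sided exact permutation p = 0.0286, the smallest that 70 arrangements allow). The deposited ratio of miR-103 did not follow this order. It was -0.048, 0.10, 0.032 and 0.40 on the fear conditioned arrays and -0.018, 0.13, 0.056 and -0.11 on the home cage arrays, a difference of 0.11 (SE 0.096, 95% interval -0.10 to 0.32, limma adjusted p = 0.763, exact permutation p = 0.429). Fear conditioned array 4 gave the highest ratio of the 8, and without it the difference was 0.015, so the size of the ratio difference rested on that array.

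**Figure D1:**
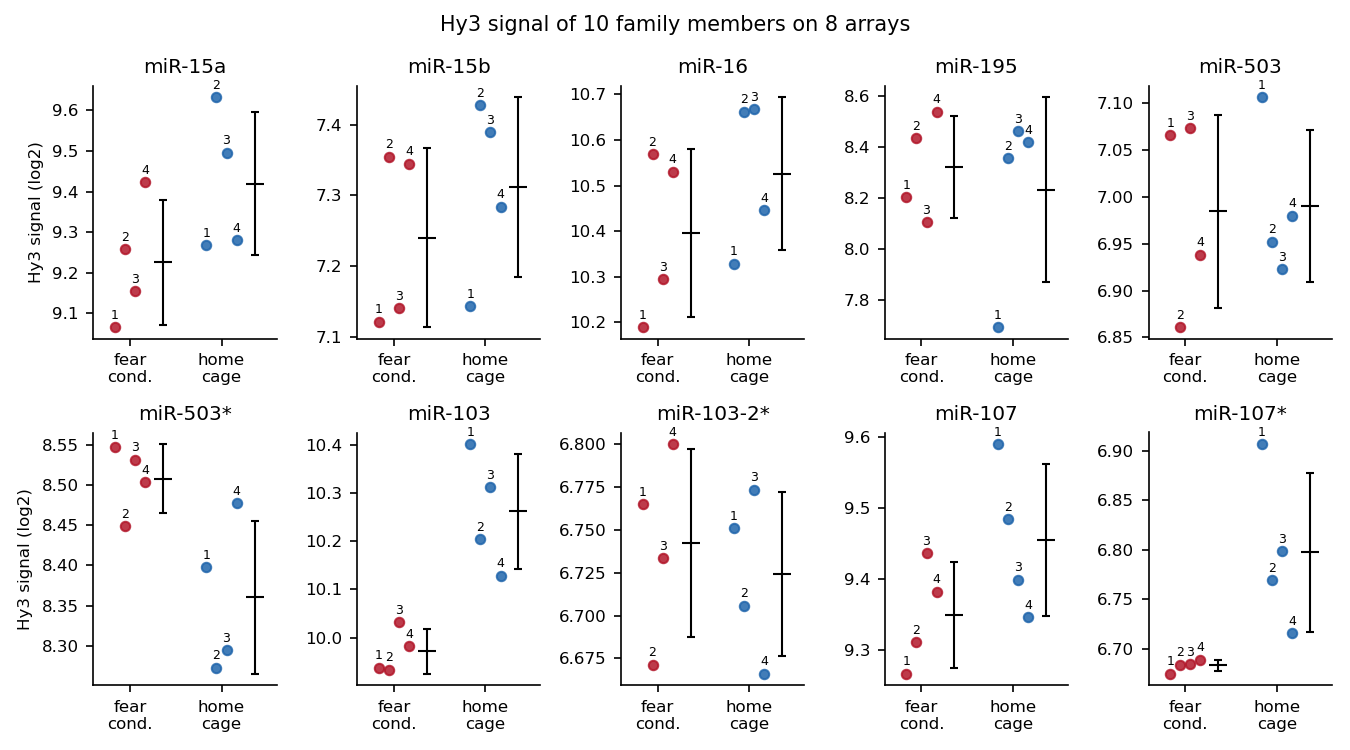
Hy3 signal (log2, vertical axis, one scale per panel) of the 10 members above the negative controls on all 8 arrays, fear conditioned in red on the left and home cage in blue on the right. Points are arrays numbered by replicate and bars are the mean and SD (n = 4), and only miR-103 and miR-107* show groups that do not overlap.

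The lack of overlap for miR-103 rested on 1 of its 32 spots. Each array carries 4 spots of the probe, and on every array spots 1 and 2 were brighter than spots 3 and 4. On fear conditioned array 4 the spots read 10.50, 10.36, 9.98 and 9.09, with an SD of 0.63 where the median over the arrays was 0.14. No scanner flag marked the last of them. With the median of the spots in place of the mean, that array stood at 10.17, against 10.11 on home cage array 4, and the groups overlapped. The difference was then -0.22 (SE 0.071, limma adjusted p = 0.215). With spots over 0.5 from the median of their array's spots left out, an alternative chosen after the values were seen, that array stood at 10.28 and the difference was -0.22 (SE 0.089, limma adjusted p = 0.261). Fear conditioned arrays 1, 2 and 3 lay below all home cage arrays in each of these summaries.

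**Figure D2:**
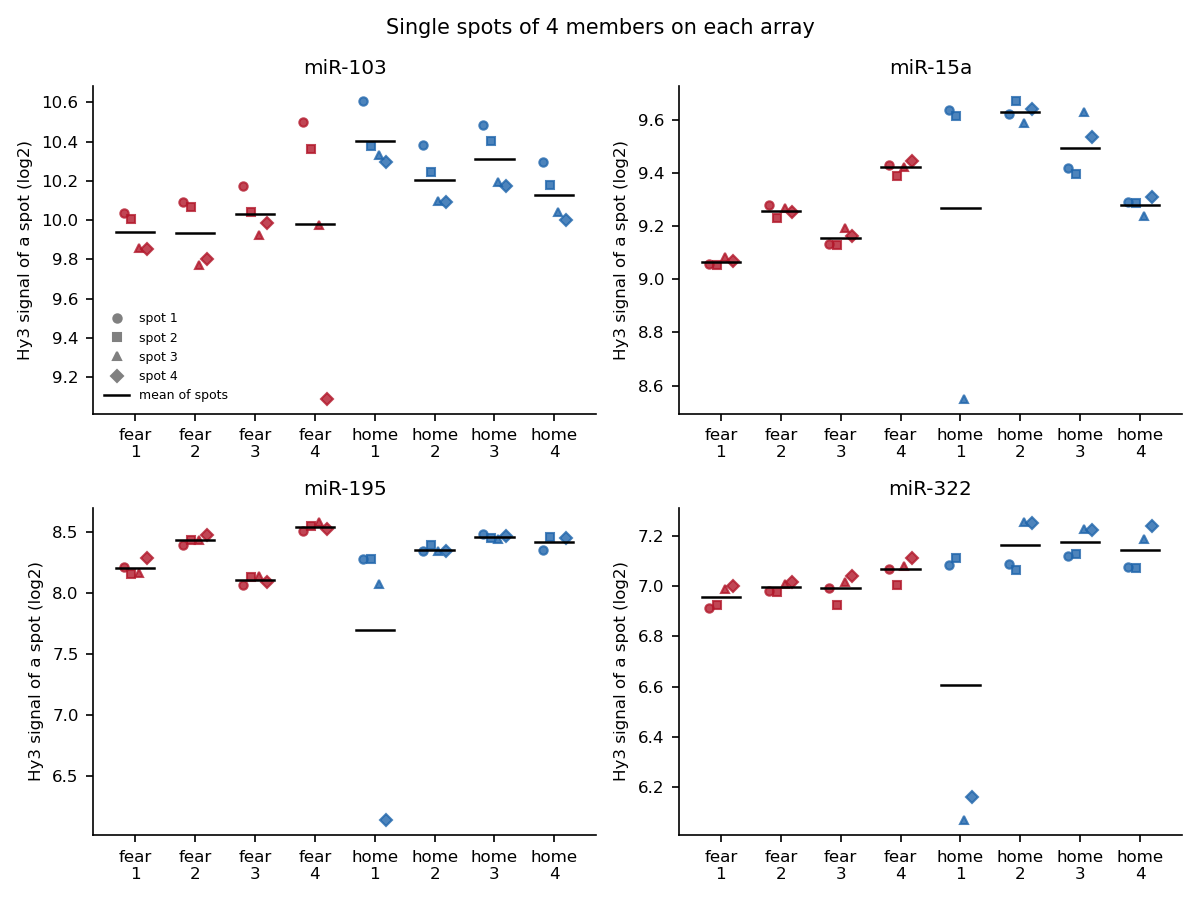
Hy3 signal (log2, vertical axis) of single spots of miR-103, miR-15a, miR-195 and miR-322 on the fear conditioned (red, left) and home cage (blue, right) arrays, with marker shape for the spot and a line for the mean of the spots used. One spot of miR-103 on fear conditioned array 4 lies at 9.09, and on home cage array 1 single spots lie at 8.55 for miR-15a, 6.14 for miR-195 and 6.07 and 6.16 for miR-322.

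miR-107, whose mature sequence differs from miR-103 at 1 base, was measured at 9.27, 9.31, 9.44 and 9.38 after conditioning and at 9.59, 9.49, 9.40 and 9.35 in the home cage. The groups overlapped, and the difference was -0.11 (SE 0.060, 95% interval -0.24 to 0.032, limma adjusted p = 0.432, exact permutation p = 0.171). Its deposited ratio averaged -0.20 ± 0.022 after conditioning and -0.20 ± 0.059 in the home cage (SD, n = 4 each), a difference of 0.00098 with a 95% interval from -0.11 to 0.12. Of the 10 members measured on every array, only miR-103-2* had a narrower ratio interval, from -0.069 to 0.16.

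The star arms of the same hairpins come from 1 Pank gene each, but they differ at only 1 or 2 of 23 positions, miR-103-1* from miR-103-2* by G1A and miR-103-2* from miR-107* by C16U. Whether the probes tell them apart was not tested. miR-107* read 6.68, 6.68, 6.69 and 6.69 after conditioning and 6.91, 6.77, 6.80 and 6.72 in the home cage, without overlap, a difference of -0.11 (SE 0.039, limma adjusted p = 0.325). The gap between the groups was narrow, and the highest value, on home cage array 1, came from 1 of 4 spots, the other 3 being flagged for poor shape. Fear conditioned array 1 also had 1 usable spot. In the ratio miR-107* differed by 0.027 (SE 0.065). miR-103-2*, from Pank2, was at 6.74 ± 0.055 after conditioning and 6.72 ± 0.048 in the home cage (SD, n = 4 each), a difference of 0.018 (SE 0.036, limma adjusted p = 0.823). miR-103-1*, from Pank3, was above the negative controls on 3 arrays of each group. In the ratio all 5 members of the family of miR-103 and miR-107 were higher after conditioning, by 0.00098 to 0.21, as were 653 of all 1033 mouse probes. Of the 5 members, 0 had an unadjusted p under 0.05. The 0.21 was that of miR-103-1*, which read -0.59 on home cage array 1 beside -0.11 to 0.0030 on the other home cage arrays. On that array its spots 3 and 4 had backgrounds of 315 and 232, above their intensities of 213 and 220.

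**Figure D3:**
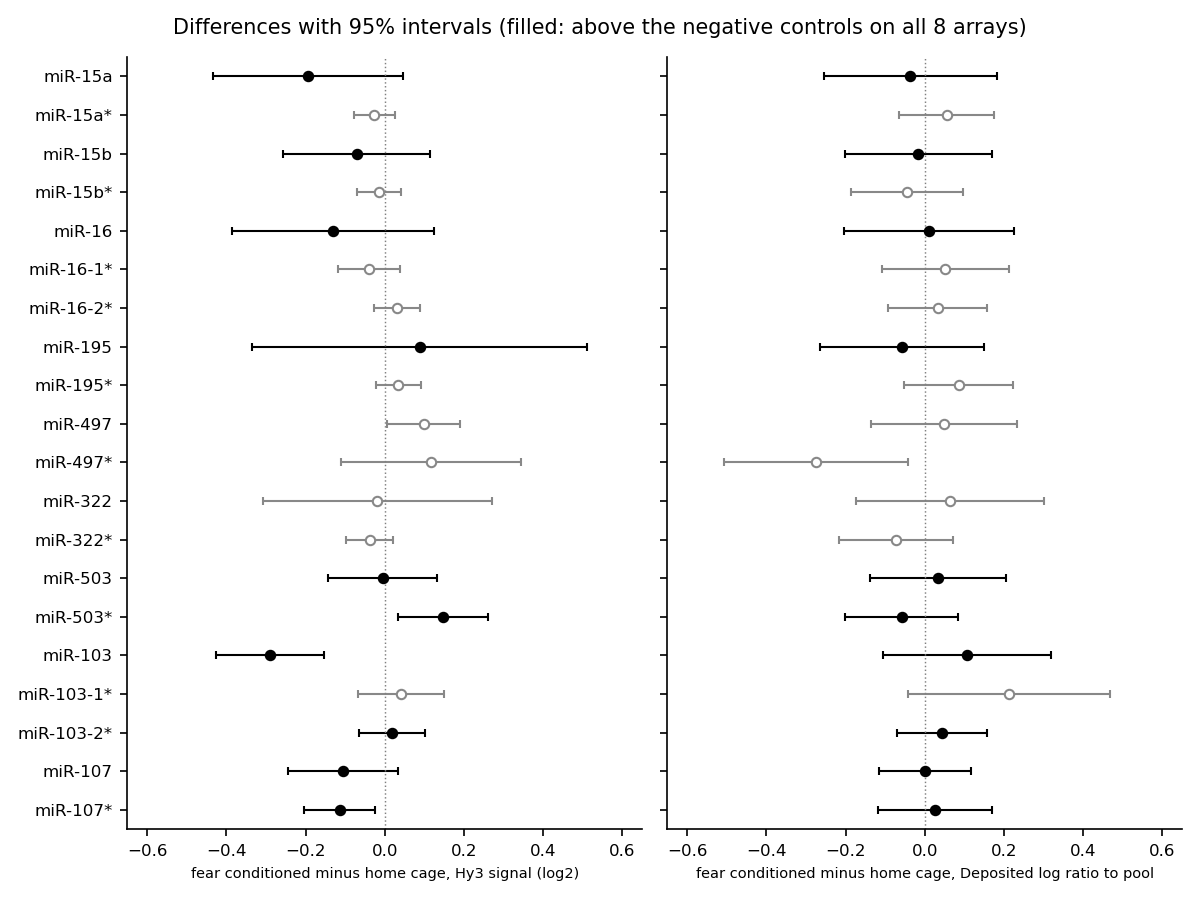
Difference, fear conditioned minus home cage (horizontal axis), of each of the 20 members in Hy3 signal (log2, left panel) and in the deposited log ratio to the pool (right panel), with 95% intervals from limma (n = 4 per group). Filled points are members above the negative controls on all 8 arrays, and miR-103 lies at -0.29 in the left panel and at 0.11 in the right.

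In the miR-15/16 family miR-16, the product of both the Dleu2 and the Smc4 cluster, was at 10.19, 10.57, 10.29 and 10.53 after conditioning and at 10.33, 10.66, 10.67 and 10.45 in the home cage. The groups overlapped widely, with means of 10.40 ± 0.18 after conditioning and 10.53 ± 0.17 in the home cage (SD, n = 4 each). The difference was -0.13 (SE 0.11, 95% interval -0.38 to 0.13, limma adjusted p = 0.613), with a ratio difference of 0.011 (95% interval -0.20 to 0.23). With the median of the spots, home cage array 1 rose from 10.33 to 10.45 and the Hy3 difference of miR-16 was -0.18 (SE 0.095, limma adjusted p = 0.359). miR-15a, its neighbour in Dleu2, was at 9.07, 9.26, 9.15 and 9.42 after conditioning and at 9.27, 9.63, 9.50 and 9.28 in the home cage. The difference was -0.19 (SE 0.10, 95% interval -0.43 to 0.046, limma adjusted p = 0.415), with a ratio difference of -0.036 (95% interval -0.25 to 0.18). On home cage array 1 a spot of miR-15a read 8.55 beside 9.64 and 9.62, and another was left out. With the median of the spots the Hy3 difference was -0.28 (SE 0.10, limma adjusted p = 0.247), without spots over 0.5 from that median -0.28 (SE 0.099, limma adjusted p = 0.231), and with flagged spots kept -0.045 (SE 0.21). miR-15b, the neighbour in Smc4, was at 7.24 ± 0.13 after conditioning and 7.31 ± 0.13 in the home cage (SD, n = 4 each), a difference of -0.071 (SE 0.080, limma adjusted p = 0.692), with -0.016 in the ratio.

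These 3 miRNAs varied together from array to array. After each probe's mean was subtracted, the Hy3 values of miR-15b lay closest to those of miR-16 of all 479 probes compared, with a root mean square difference of 0.058 over 8 arrays. miR-106b, of the miR-17 family, came next at 0.068 and miR-15a at 0.080, where the median over probes was 0.19. The measure is a description over arrays that share their RNA samples and scaling. On home cage array 1, miR-16, miR-15b and miR-15a each had low spots. There miR-16 read 10.27 and 9.77 beside 10.65 and 10.62, and miR-15b read 6.82 beside 7.23 to 7.29. The part of these spots in the likeness was not tested. For miR-103 the nearest probes were miR-592 at 0.044, miR-129-5p at 0.053 and miR-615-3p at 0.064, and miR-107 stood at rank 72 with 0.11. miR-592 and miR-129-5p differed in Hy3 by -0.25 and -0.27, and miR-615-3p by -0.22.

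miR-195 and miR-497 are neighbours on chromosome 11. miR-195 was at 8.20, 8.44, 8.11 and 8.54 after conditioning and at 7.69, 8.36, 8.46 and 8.42 in the home cage, where array 1 lay below all the others. Its difference was 0.088 (SE 0.18, 95% interval -0.33 to 0.51, limma adjusted p = 0.832). On home cage array 1 the spots read 8.28, 8.28, 8.08 and 6.14, and the local background of the last was 180, where the spot backgrounds averaged at most 54 on the other arrays. With the median of the spots the difference turned to -0.041 (SE 0.11), and without that array to -0.092. The ratio of miR-195 differed by -0.057 (SE 0.093). miR-497, above the negative controls on 4 fear conditioned and 3 home cage arrays, was at 6.59 ± 0.046 after conditioning and 6.50 ± 0.069 in the home cage (SD, n = 4 each), a difference of 0.098 (SE 0.040, limma adjusted p = 0.344), with 0.050 (SE 0.083) in the ratio. Poor spot shape removed 10 of its 32 spots.

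On the X chromosome miR-322, the mouse counterpart of human miR-424, was at 6.96, 6.995, 6.99 and 7.07 after conditioning and at 6.61, 7.16, 7.17 and 7.14 in the home cage. All fear conditioned arrays lay between home cage array 1 and the other 3. On home cage array 1 spots 3 and 4 of miR-322 read 6.07 and 6.16 beside backgrounds of 226.5 and 219, and spots 1 and 2 read 7.08 and 7.11. The difference over all arrays was -0.019 (SE 0.12, limma adjusted p = 0.946). Without home cage array 1 it was -0.16 (SE 0.030, limma adjusted p = 0.0924), with every fear conditioned array below the 3 home cage arrays left, so this array decided its size. miR-503 from the same transcript was at 7.07, 6.86, 7.07 and 6.94 after conditioning and at 7.11, 6.95, 6.92 and 6.98 in the home cage, a difference of -0.0056 (SE 0.060, limma adjusted p = 0.966). One spot decided the level on fear conditioned array 1, at 7.63 beside 6.86, 6.85 and 6.91. The ratio of miR-503 differed by 0.033 (SE 0.077).

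miR-503*, the other arm of that hairpin, had the largest positive Hy3 difference of the 20 members. It was at 8.55, 8.45, 8.53 and 8.50 after conditioning and at 8.40, 8.27, 8.29 and 8.48 in the home cage. Home cage array 4 lay above fear conditioned array 2, so the groups overlapped at 1 array each. The mean was 8.51 ± 0.043 after conditioning and 8.36 ± 0.095 in the home cage (SD, n = 4 each), a difference of 0.15 (SE 0.049, 95% interval 0.034 to 0.26, limma adjusted p = 0.301). The spots of this probe lay close together, with an SD of at most 0.105 on any array. The deposited ratio ran the other way, at -0.058 (SE 0.064). The neighbours of miR-322 and miR-503 in the cluster, miR-351, miR-542, miR-450a and miR-450b with their arms, were 4 higher and 5 lower of 9 probes, 0 passed in either measure, and 4 passed the negative controls on every array. Of these miR-351 had the lowest p, at 7.54 ± 0.095 after conditioning and 7.68 ± 0.081 in the home cage (SD, n = 4 each, limma adjusted p = 0.344).

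**Figure D4:**
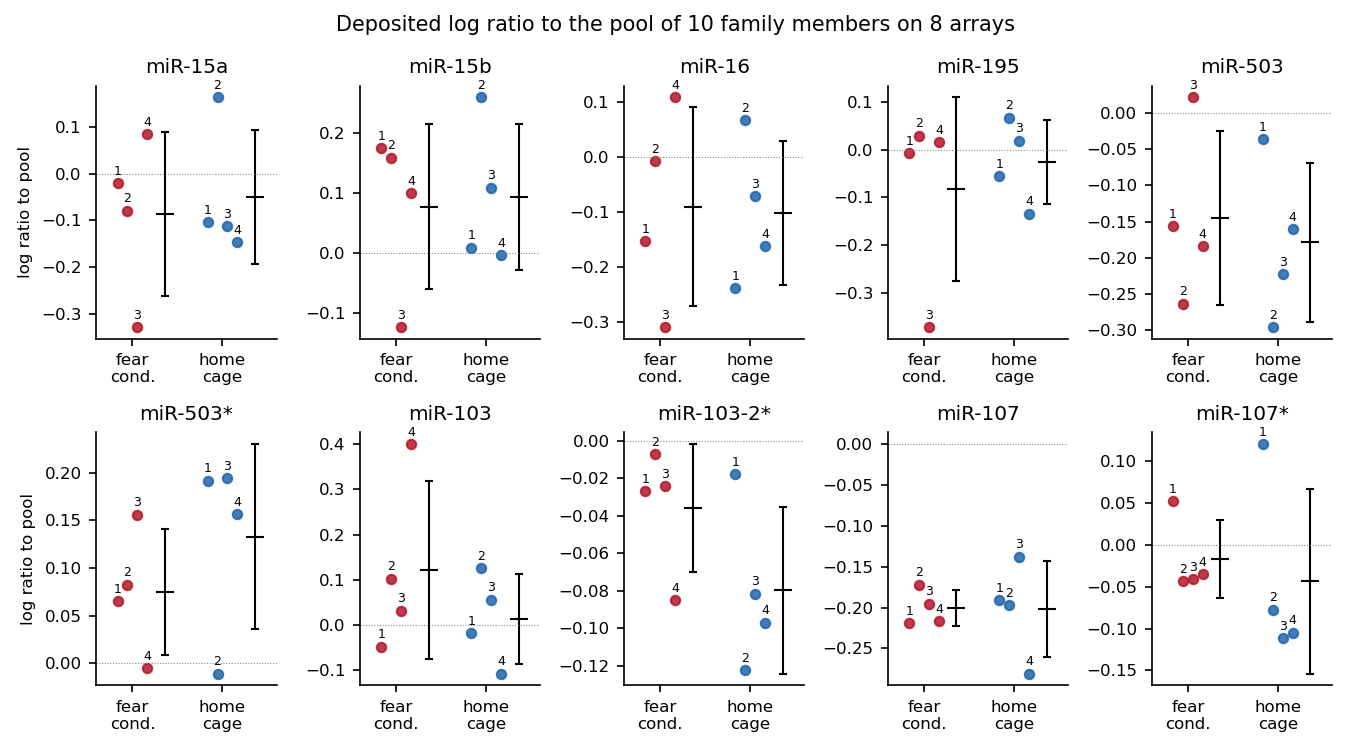
Deposited log ratio of sample to pool (vertical axis, one scale per panel) of the same 10 members, fear conditioned in red on the left and home cage in blue on the right. Points are arrays numbered by replicate and bars are the mean and SD (n = 4), and the groups overlap in every panel.

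The measures disagreed in direction for most of the members measured on every array. The Hy3 and ratio differences had the same sign for 3 of these 10 members and for 9 of all 20, or 45.0%, beside 56.5% of all mouse probes. That share includes dim probes, and none was computed for the 480 mouse probes above the negative controls on every array. Of those 480 probes 290 were lower in Hy3 and 329 higher in the ratio. Subtracting the ratio from the Hy3 signal leaves an implied value for the pool, which is the same RNA on all arrays. The Hy3 signal was normalized here, and the processing of the ratio is not known. This value therefore mixes the pool signal with any difference in processing, and the pool channel itself was not available. For miR-103 this value averaged 9.85 on the fear conditioned and 10.25 on the home cage arrays, a difference of -0.40 (SE 0.10, limma adjusted p = 0.112). Over 1033 probes 0 passed this test in limma and 172 had an unadjusted p under 0.05. For miR-503* the value averaged 8.43 on the fear conditioned and 8.23 on the home cage arrays, a difference of 0.21 (SE 0.066, limma adjusted p = 0.144). Neither difference passed. Because the Hy3 and ratio differences of these members have opposite signs, the implied value takes the sign of the Hy3 difference by construction.

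Under the 4 scalings of all arrays, the direction relative to the median of all mouse probes turned for 6 of these 10 members, miR-15a, miR-15b, miR-16, miR-503, miR-103 and miR-107. It stayed positive for miR-195, miR-503* and miR-103-2* and negative for miR-107*. Without subtracting that median, miR-103-2* and miR-107* turned as well. With each array centred on its median, miR-103 differed by 0.12 in place of -0.29, miR-16 by 0.24 and miR-107 by 0.29, and with cyclic loess miR-103 differed by -0.22. Centring on the spike-in RNAs gave -0.079 for miR-103, but it shifted the median of all mouse probes by -0.14. Relative to that median miR-103 was at 0.059, and with median centring it was at 0.059 as well. Both centrings shift a whole array by 1 value, so differences relative to that median nearly coincide by construction. For the direction relative to that median these 2 therefore count as 1 scaling. Before any normalization the mean spot intensity of miR-103 was 930, 968, 1397 and 1527 on the fear conditioned arrays and 1122, 1149, 978 and 1063 on the home cage arrays. In those intensities 2 of the fear conditioned arrays lay above all home cage arrays and 2 below them. Without home cage array 1, alternatives chosen after the values were seen, median centring gave -0.096 for miR-103 and spike-in centring 0.053. Of the 10 members measured on every array, miR-503* kept a positive Hy3 difference in all 24 alternatives, from 0.10 to 0.43. These alternatives use the same 8 arrays.

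**Figure D5:**
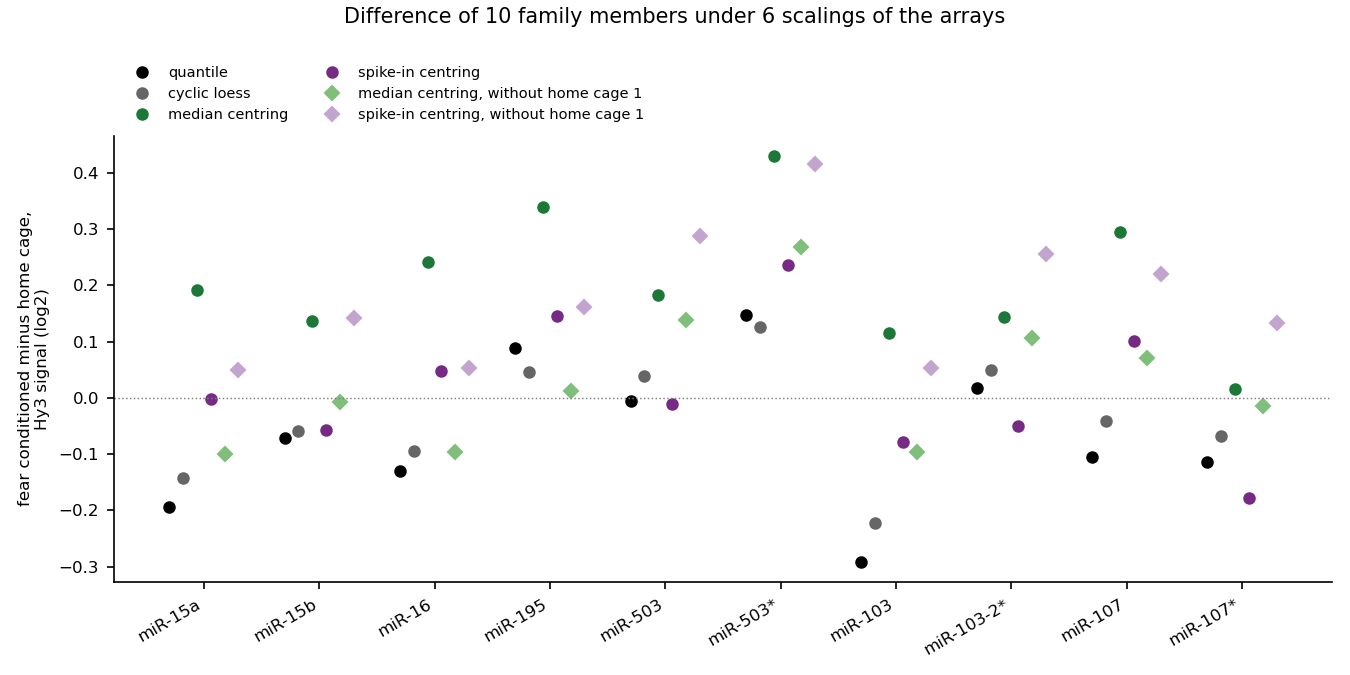
Difference in Hy3 signal (log2, fear conditioned minus home cage, vertical axis) of 10 members under 6 scalings of the arrays, with diamonds for the scalings without home cage array 1. miR-503* lies above 0 in all 6, and miR-103 lies between -0.29 and 0.12.

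Markers of the cell types that a punch can hold did not pass in either measure. In bulk tissue fewer cells of a type and less RNA per cell cannot be told apart. Neuronal markers were 1 higher and 6 lower of 7 in Hy3 and 4 higher and 3 lower in the ratio. The higher one in Hy3 was miR-9, at 12.83 ± 0.17 after conditioning and 12.71 ± 0.045 in the home cage (SD, n = 4 each). Chosen after its values were seen, miR-129-1-3p was at 10.52 ± 0.14 after conditioning and 10.88 ± 0.16 in the home cage, without overlap (limma adjusted p = 0.191), with -0.051 in the ratio. Their summed level ran from 14.92 to 15.27 on the fear conditioned and from 15.14 to 15.25 on the home cage arrays. Microglial and leukocyte markers were 1 higher and 5 lower of 6 in Hy3 and 2 higher and 4 lower in the ratio, with miR-142-3p at 7.69 ± 0.090 after conditioning and 7.70 ± 0.034 in the home cage. The lymphocyte miRNA miR-150, also chosen after its values were seen, was at 7.55 ± 0.090 after conditioning and 7.80 ± 0.059 in the home cage, without overlap (limma adjusted p = 0.112), with 0.16 in the ratio. Their summed level ran from 9.66 to 9.76 on the fear conditioned and from 9.74 to 9.81 on the home cage arrays. Astrocyte markers were 3 of 3 lower in Hy3, and 1 higher and 2 lower in the ratio. In Hy3 miR-26a differed by -0.14 (SE 0.043, limma adjusted p = 0.269) and miR-21 by -0.055 (SE 0.15). miR-143, which is also on the vessel list, differed by -0.0050 in Hy3 (SE 0.12). The ratio differences of miR-26a, miR-21 and miR-143 were -0.021, -0.22 and 0.00097. Oligodendrocyte markers were 2 higher and 2 lower of 4 in Hy3, and 3 higher and 1 lower in the ratio. The part of cell composition in the differences of the members was not tested.

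Markers carried by blood and vessels were each 3 higher and 1 lower of 4 in Hy3, and none passed. The higher red blood cell markers include miR-144*, which was above the negative controls on 0 arrays. Red blood cell miR-451 was at 9.55 ± 0.48 after conditioning and 9.52 ± 0.55 in the home cage, and endothelial miR-126-3p at 9.98 ± 0.18 after conditioning and 9.91 ± 0.54 in the home cage (SD, n = 4 each). The 8 choroid plexus probes were all higher after conditioning in both measures, with medians of 0.16 in Hy3 and 0.28 in the ratio, and 5 of them passed the negative controls on every array. Their summed level ran from 10.37 to 11.95 on the fear conditioned and from 10.04 to 11.67 on the home cage arrays, and miR-204 was at 9.47 ± 0.84 after conditioning and 8.92 ± 0.93 in the home cage. miR-122, a liver miRNA not expected in this tissue, read 6.51 ± 0.0090 after conditioning and 6.61 ± 0.068 in the home cage and passed the negative controls on every array. Its groups did not overlap in Hy3, with a difference of -0.11 (SE 0.035, limma adjusted p = 0.301), the same to 2 digits as that of miR-107*. In the ratio miR-122 differed by -0.016.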

How the data were processed

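RNA of each mouse (500 ng) carried Hy3 and a pool carried Hy5, per the labels' protocols. The deposited scanner tables hold, per the file headers, spot intensity, local background intensity and a flag for 1 channel, taken as Hy3 because its deviations correlated with the deposited ratios (r from 0.34 to 0.74 by array over 480 probes). The authors also deposited a log ratio of sample to pool, taken as log2. Sources used here do not give its base, correction or normalization.

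Normexp correction (offset 50) of the mean intensity was followed by quantile normalization over capture spots, without spots flagged 3 (poor shape) or 4 (background above signal). The mean of a probe's 4 spots was then taken, in limma 3.58.1 under R 4.3.3. Flag 4 did not mark every spot with background above signal. On home cage array 1, spots 3 and 4 of miR-322 and of miR-103-1*, spot 4 of miR-195 and spot 3 of miR-16-2* were such spots and were kept. The offset makes log2 differences of dim probes too small. Groups were compared with lmFit and eBayes (two-sided, Benjamini-Hochberg over 1034 mouse probes, 1033 in the ratio, adjusted p under 0.05). The 7 main-arm members above the controls on all 8 arrays had 14 exact permutation tests, unadjusted. Negative controls were 28 spots of 7 probes. The fit was tested on simulated data.

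Named were all members, the X-cluster neighbours, the 3 probes closest to miR-16 and to miR-103, and stated markers. Members and lists were chosen with earlier results of these data known. Alternatives changed offset, background, scaling, filter, probe set, spots, weights and arrays. Replicate numbers were not used as pairs, since same-numbered arrays correlated at -0.087, 0.031, -0.62 and 0.0046. Figures used matplotlib 3.10.9.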

Additional observations from a re-analysis of the deposited data

Results flagged for a closer look

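Among the 4 values of a group, 1 array stood far from the other 3 in 9 of 80 groups of member values tested, where chance gives about 4. Home cage array 1 had 508 spots flagged for background above signal. On it miR-195 read 7.69 in Hy3 beside 8.36 to 8.46 on the other home cage arrays. miR-322 on the same array read 6.61 in Hy3 beside 7.14 to 7.17, and -0.54 in the deposited ratio beside -0.091 to -0.016. miR-107* read 0.12 in the ratio on home cage array 1 beside -0.11 to -0.077, and 0.053 on fear conditioned array 1 beside -0.043 to -0.035. The Hy3 summary of miR-107* used 1 of 4 spots on each of these arrays. In the ratio miR-195 was at -0.37 on fear conditioned array 3 beside -0.0069 to 0.029, and miR-15a was at 0.16 on home cage array 2 beside -0.15 to -0.10. miR-15a*, above the negative controls on 3 arrays, read 6.46 in Hy3 on fear conditioned array 4 beside 6.42 to 6.43, and 6.50 on home cage array 3 beside 6.44 to 6.45. The causes were not tested.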

How the results depend on the processing

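The count of members at an adjusted p under 0.05 in limma was 0 in both measures under all 24 alternatives in Hy3 and all 14 in the ratio, with lowest adjusted p-values of 0.0568 (miR-103, array weights) and 0.321. Over all mouse probes the Hy3 count was 2. It was 0 without background subtraction, with median centring and with spike-in centring, 1 with cyclic loess, with the filter on negative controls and with flagged spots kept, 5 over all capture probes, 4 with the median of spots and 9 with array weights. With 1 array left out it ran from 0 to 2, at 2 without fear conditioned array 4, 1 without fear conditioned array 2 or home cage array 3 and 0 without any of the others. Replicate numbers shared by the groups did not pair the arrays, and with the number as a block the Hy3 count was 0, with 85 probes at an unadjusted p under 0.05.

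Hy3 differences that turned sign with median centring were miR-15a at 0.19, miR-15b at 0.14, miR-16 at 0.24, miR-503 at 0.18, miR-103 at 0.12, miR-107 at 0.29 and miR-107* at 0.016. With spike-in centring miR-16 turned to 0.048, miR-103-2* to -0.050 and miR-107 to 0.10. miR-503 turned to 0.031 without background subtraction, 0.039 with cyclic loess and 0.031 with array weights, and miR-195 to -0.041 with the median of spots and -0.060 with array weights. In the ratio miR-16 turned to -0.00052 with median centring, -0.020 with quantile normalization and -0.019 with array weights. There miR-107 turned to -0.011 with median centring and -0.029 with quantile normalization, and miR-107* to -0.032 with quantile normalization. With 1 array left out, Hy3 differences ran from -0.092 (without home cage array 1) to 0.16 for miR-195, from -0.035 to 0.036 for miR-503 and from -0.0010 to 0.042 for miR-103-2*. The ratio differences then ran from -0.093 to 0.045 for miR-15a, -0.048 to 0.051 for miR-15b, -0.055 to 0.084 for miR-16, -0.095 to 0.039 for miR-195, -0.022 to 0.081 for miR-503 and -0.025 to 0.022 for miR-107. The Hy3 differences that kept their sign ran from -0.34 to -0.24 for miR-103, -0.26 to -0.12 for miR-15a, -0.13 to -0.031 for miR-15b, -0.20 to -0.061 for miR-16, -0.14 to -0.061 for miR-107, -0.14 to -0.078 for miR-107* and 0.12 to 0.19 for miR-503*. The nearest to 0 came without home cage array 2 for miR-15a, fear conditioned array 1 for miR-15b and miR-16 and home cage array 1 for miR-107. In the ratio miR-103 ran from 0.015 (without fear conditioned array 4) to 0.16.

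Chosen after the data were seen were 4 further settings. Leaving out spots over 0.5 from the median of their array's spots gave 2 calls and turned miR-195 to -0.041. Without home cage array 1, median centring gave 0 calls and turned miR-503 to 0.14 and miR-107 to 0.071. Spike-in centring without that array gave 0 calls and turned miR-15a to 0.050, miR-15b to 0.14, miR-16 to 0.053, miR-503 to 0.29, miR-103 to 0.053, miR-107 to 0.22 and miR-107* to 0.13. The median of spots without that array gave 10 calls over all mouse probes and turned miR-195 to -0.10. The causes of these changes were not tested. With 4 arrays per group and dim star arms near the negative controls, small differences were not detectable. The star arm miR-503* was not dim, at 8.51 after conditioning and 8.36 in the home cage, where the main arm miR-503 was at 6.98 and 6.99.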
